A study of Mus musculus with 24 samples.

Results

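Muscle stem cells of mice with and without a deletion aimed at Lamp2a were compared for how their RNA changed between day 1 and day 4 after muscle injury. The comparison took 16 of the 24 libraries of the study: 4 each of WT cells (genotype label L2A-WT) and KO cells (genotype label L2A-Pax7CreER) at 1 and at 4 days after an intramuscular injection of 50 µL of 10 µM cardiotoxin. For each gene the change from day 1 to day 4 in WT was subtracted from the same change in KO, on a log2(value + 1) scale. This difference of changes is called the interaction below; a positive value means that the KO change was the higher of the pair. The genes described are those whose interaction passed the test, 1550 of the 15815 tested. Statements about all other libraries or groups cover these 16 libraries only.

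All 16 libraries were primary cells from muscle, labelled as muscle stem cells and as batch 1. The KO label names Pax7CreER, a Cre recombinase active in Pax7-expressing cells, and no group is labelled as carrying that Cre with intact Lamp2a, so effects of the Cre allele and of the deletion cannot be told apart. Strain, age, sex and any tamoxifen treatment are not given in the sources used here. Whether replicate libraries stem from different animals is not given either; p-values therefore measure only the spread between these libraries, which may be technical.

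A muscle stem cell rests beneath the basal lamina of the muscle fibre until damage, then leaves quiescence, enters the cell cycle and, some days later, expands as Pax7- and Myod1-expressing progeny that differentiate or return to rest. Chaperone-mediated autophagy is the route by which the chaperone Hspa8 carries single cytosolic proteins to the lysosome, where the Lamp2a form of Lamp2 takes them in. Other systems that handle damaged proteins and stress include the heat shock proteins, the NRF2 programme against oxidants, the ATF4 programme of amino acid supply and macroautophagy. Day 1 falls in the activation phase and day 4 in the expansion phase.

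Libraries held 11.99 to 22.47 M counts, and pairs of libraries of a group correlated at 0.974 to 0.985 in WT at day 1, 0.966 to 0.972 in KO at day 1, 0.947 to 0.953 in WT at day 4 and 0.874 to 0.901 in KO at day 4. Mitochondrially encoded transcripts took 2.2 to 3.7% of counts in WT and 3.8 to 6.1% in KO at day 1, and 28.0 to 31.4% in WT and 43.1 to 47.9% in KO at day 4. A total of 13 markers of muscle stem cells summed to 5027 to 7359 normalised counts in WT and 6001 to 8241 in KO at day 1, and to 1485 to 1701 and 1478 to 1618 at day 4. One by one, 7 of the 13 were lower in KO at day 1 (7.23% of all genes were) and 5 higher (11.9%). Their median KO minus WT difference at day 1 was -0.73 on the log2(value + 1) scale. Markers of macrophages and monocytes, 20 in all, summed to 9.19 to 34.6 in WT and 18.2 to 28.4 in KO at day 1, where Cx3cr1 and Fcgr1 were at 0 in KO, and to 1629 to 2141 in WT and 1422 to 1590 in KO at day 4. The summed macrophage level was thus higher at day 4 than at day 1 in both genotypes, and its part in the results below was not tested.

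Genes whose change was lower in KO outnumbered those whose change was higher. The interaction passed the test (limma, adjusted p under 0.05) in 1550 genes, 9.8% of those tested, with 1084 lower (6.85%) and 466 higher (2.95%). The lower genes had a median interaction of -1.22 and the higher genes one of 1.54, against -0.04 over all genes. Most genes changed between the days in both genotypes: 65.9% passed in WT and 64.5% in KO. By direction, 35.6% rose and 30.3% fell in WT, and 33.8% rose and 30.7% fell in KO. Counts of list members that rose or fell are to be read against these shares. In bulk RNA, fewer cells of a type and less RNA per cell cannot be told apart.

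More genes were called different between the genotypes at day 1 than at day 4. KO libraries at day 4 correlated least with each other, at 0.874 to 0.901. The fit takes a shared spread per gene over all groups, so this scatter enters the SE at both days. For genes that scatter more in KO at day 4, the limma p of day 4 differences can be too small. A gene not called at day 4 is not shown to be alike in the genotypes. At day 1, 11.9% of genes were higher and 7.23% lower in KO than in WT, while at day 4 those shares were 0.986% and 1.71%. Of the 1084 genes with a lower interaction, 890 were higher in KO at day 1, and 840 differed between genotypes at day 1 only. Of the 466 with a higher interaction, 341 were lower in KO at day 1 and 328 differed at day 1 only. A difference at day 4 alone was called for 96 of the lower and 46 of the higher genes. The interaction is also the KO minus WT difference at day 4 less that at day 1. A lower interaction thus requires KO to be higher at day 1 or lower at day 4, and a higher one the reverse. The direction of these differences follows largely from the selection, and the split between the days is what the counts describe. Counts of list members that differed between genotypes at a day, or in the interaction, are to be read against the shares of all genes given above.

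**Figure D1:**
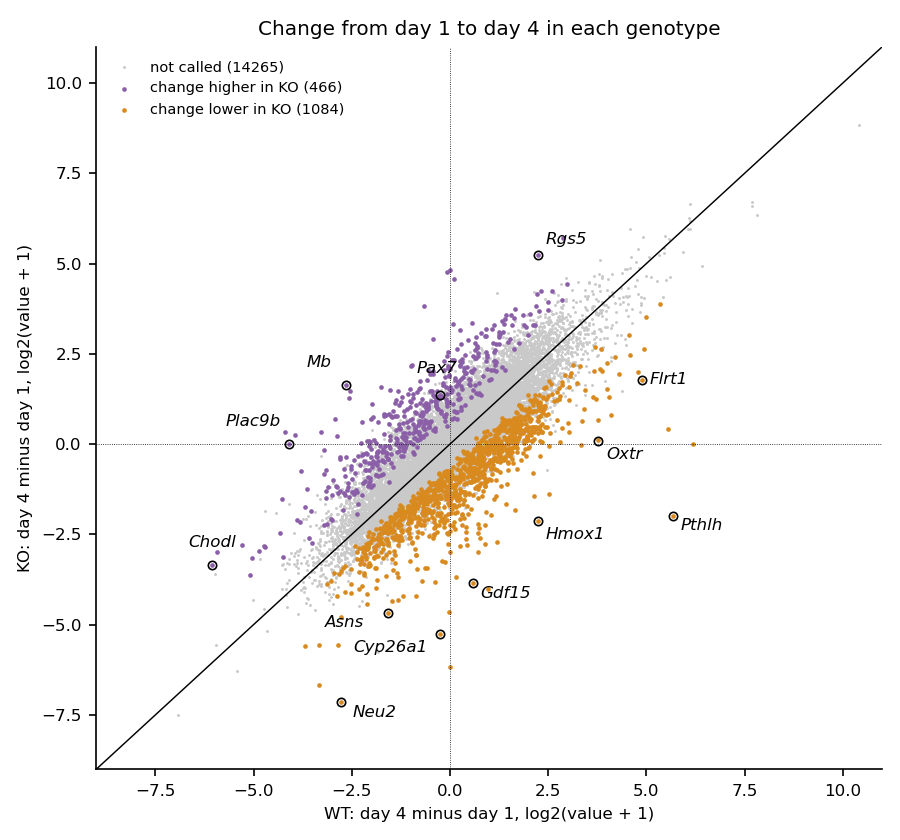
Each point is a gene, with its day 4 minus day 1 change in WT on the x axis and in KO on the y axis, both on a log2(value + 1) scale; the diagonal marks equal change. The 466 genes whose interaction was called higher lie above the diagonal and the 1084 called lower lie under it, with Pthlh, Hmox1 and Gdf15 far under it.

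By the direction of each genotype's own change, the 1550 genes fell into 5 kinds. In 433 genes both genotypes moved the same way and KO moved further, 359 of them with a lower interaction, so that both fell. In 394 genes the change passed in WT alone, and in 357 in KO alone. Both moved the same way and WT further in 222, and the genotypes moved in opposite ways in 143. The change passed in neither genotype for 1 gene. Of 254 genes that rose in WT and did not pass in KO, 204 were higher in KO than in WT at day 1, and 201 of these were not called different at day 4. Of 140 that fell in WT and did not pass in KO, 111 were lower in KO at day 1 and 107 of these were not called different at day 4. The direction of these differences, too, follows largely from how the genes were selected.

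**Figure D2:**
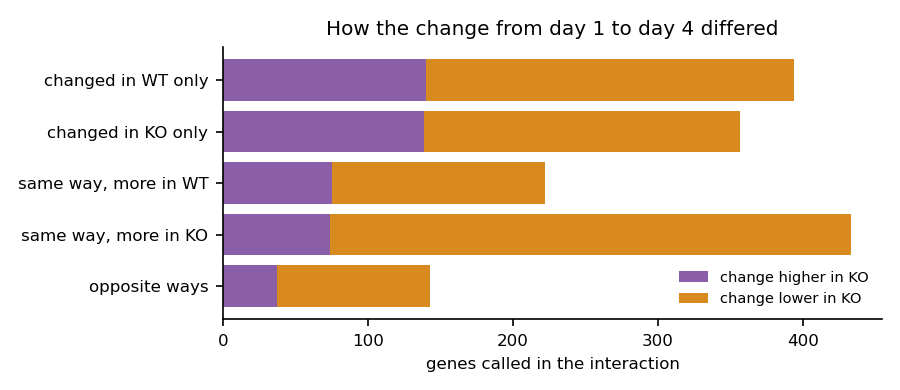
Bars count the genes called in the interaction by how each genotype changed from day 1 to day 4, split by the direction of the interaction. The bar for genes that moved the same way and further in KO is the longest, at 433 genes, of which 359 have a lower interaction.

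Lamp2, the gene that carries the targeted exon, was measured at 371, 457, 417 and 415 in WT and 457, 393, 422 and 290.3 in KO at day 1, and 197, 226, 200.2 and 211 in WT and 154, 249, 266 and 217 in KO at day 4. WT and KO overlapped at both days, and the interaction was 0.16 ± 0.22 (SE), with an adjusted p of 0.707. The table counts the gene as a whole, and the a form shares most of its sequence with the other forms of Lamp2, so these values do not check the deletion.

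The largest interaction belonged to Pthlh, which encodes parathyroid hormone-related protein, a secreted signal. Its normalised counts were 0.27, 0.344, 0.258 and 2.29 in WT and 369.9, 464, 427 and 448 in KO at day 1, and 76.8, 58.5, 103 and 97.6 in WT and 89.7, 127, 134 and 84.1 in KO at day 4. KO libraries at day 1 stood above all others, WT libraries at day 1 were at 2.29 or less, and the genotypes overlapped at day 4. Pthlh rose in WT and fell in KO, and the interaction was -7.66 ± 0.38 (SE), with an adjusted p of 2e-10.

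Several other genes rose in WT from low values at day 1, when KO cells already held much of the level that WT reached at day 4. Oxtr, the oxytocin receptor, was at 0.0623, 0.0229, 0.0234 and 0.0246 in WT and 26.8, 21.2, 15.8 and 19.4 in KO at day 1, and 14.4, 10.3, 13.8 and 14.3 in WT and 24.2, 20, 19.9 and 24.4 in KO at day 4. A total of 1 count was found over the 4 WT libraries at day 1, so the size of the Oxtr interaction depends on the pseudocount: it ran from -9.73 to -1.76 over the settings tried, with adjusted p of at most 0.000125. In KO, Oxtr changed by 0.10 ± 0.24 (adjusted p = 0.726) between the days.

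Vasn, a membrane protein that binds TGF-beta, was at 2.39, 1.4, 2.13 and 1.06 in WT and 23.4, 23.3, 31.5 and 33.8 in KO at day 1, and 27.9, 26.5, 31.5 and 20.1 in WT and 25.6, 41.5, 25 and 19.6 in KO at day 4. WT at day 1 was apart from the other groups, which overlapped with each other. Its interaction was -3.37 ± 0.37 (SE), with an adjusted p of 9.26e-06. Flrt1, an adhesion protein with leucine-rich repeats, was at 0.851, 0.895, 0.164 and 0.418 in WT and 21, 23.1, 30.7 and 20.1 in KO at day 1, and 48.4, 39.8, 52 and 40.7 in WT and 83.4, 84.5, 96.2 and 68.4 in KO at day 4. It rose in both genotypes, from 0.895 or less in WT and from 20.1 or more in KO, with an interaction of -3.11 ± 0.31 (SE), with an adjusted p of 2.82e-06. S100a4, a calcium-binding protein, had means at day 1 of 19.4 ± 6.77 (SD, n = 4) for WT and 169 ± 35.6 for KO, and of 269 ± 41.3 and 269 ± 61.1 at day 4, with an interaction of -3.12 ± 0.32 (adjusted p = 4.16e-06). Tmod1, which caps actin filaments, gave -3.32 ± 0.33 (adjusted p = 3.33e-06).

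Genes that were high in KO at day 1 alone, among the groups compared, made up another group. Gdf15, a secreted stress cytokine, was at 18.6, 13.5, 15 and 15.1 in WT and 379, 390.3, 454 and 427 in KO at day 1, and 22.9, 18.9, 27.8 and 25.8 in WT and 24, 21.3, 43.5 and 26.2 in KO at day 4. KO libraries at day 1 held at least 379 and no other library of day 1 or day 4 exceeded 43.5, and at day 4 the genotypes overlapped. Gdf15 rose in WT by 0.58 and fell by 3.85 in KO on the log2 scale, and the interaction was -4.43 ± 0.27 (SE), with an adjusted p of 5.89e-09.

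Cyp26a1, which breaks down retinoic acid, was at 1.1, 0.436, 2.51 and 0.517 in WT and 148, 102, 113 and 128 in KO at day 1, and 0.172, 0.0358, 2.56 and 0.833 in WT and 3.73, 2.92, 1.54 and 1.33 in KO at day 4. At least 102 was measured in each KO library at day 1, against at most 3.73 in any other group of day 1 or day 4. The interaction was -4.99 ± 0.56 (SE), with an adjusted p of 1.39e-05. Neu2, a cytosolic sialidase, fell in both genotypes, from 12.1, 7.87, 8.27 and 20.4 in WT and 370.1, 218, 126 and 234 in KO at day 1 to 0.31, 0.967, 0.316 and 2.04 in WT and 0.196, 0.123, 0.444 and 2.11 in KO at day 4, with an interaction of -4.37 ± 0.58 (adjusted p = 7.99e-05). Spock1, a matrix proteoglycan, had means at day 1 of 0.932 ± 0.439 (SD, n = 4) in WT and 28 ± 3.08 in KO and gave -4.98 ± 0.55. Pgf, placental growth factor, had means of 5.23 ± 2.92 and 54.2 ± 10.9 and gave -3.67 ± 0.49, with an adjusted p of 0.0523 when all 24 libraries shared one model.

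Some genes of haem breakdown and iron storage were also higher in KO at day 1. Hmox1 cleaves haem and frees its iron, and ferritin, made of Ftl1 and Fth1, stores that iron. Hmox1 was at 43.3, 47.8, 50.6 and 39.9 in WT and 1676, 1333, 1733 and 1600 in KO at day 1, and 180.5, 206, 259 and 228 in WT and 411, 396, 409.9 and 259 in KO at day 4. The day 1 groups were apart by a wide margin, with KO above every day 4 library and WT under every one; at day 4 KO was higher in 3 of 4 libraries and the groups touched at 259. Hmox1 rose in WT and fell in KO, with an interaction of -4.35 ± 0.21 (SE), with an adjusted p of 2e-10. Of 16 genes of haem breakdown and iron, 6 had a lower interaction (the background is 6.85%), with a list median of -0.43, and 6 were higher in KO at day 1, with a day 1 median of 0.14. Quantile normalization called 3 lower, and DESeq2 called 2 members higher beside 6 lower.

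Ftl1 was at 2676, 2471, 2008 and 2391 in WT and 9323, 8572, 8385 and 9400 in KO at day 1, and 3220, 2928, 3085 and 3262 in WT and 3695, 3735, 3642 and 3203 in KO at day 4. It rose in WT and fell in KO, from a KO level at day 1 above all other libraries, and the interaction was -1.72 ± 0.12 (SE), with an adjusted p of 4.02e-08. Quantile normalization took the Ftl1 value to -3.24. Fth1 fell in both genotypes and further in KO, with -0.80 ± 0.14 (adjusted p = 0.00136).

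NRF2 is the transcription factor that raises genes for glutathione and thioredoxin use when oxidants or electrophiles accumulate. Of 25 genes of that programme, 15 were higher in KO at day 1 and 7 had a lower interaction. The matching shares of all genes were 11.9% and 6.85%, and the list median of the interaction was -0.49. Quantile normalization and the model of all 24 libraries each called 4. Sqstm1, an NRF2 target that also carries cargo into autophagosomes, was at 1147, 1311, 1449 and 1126 in WT and 3950, 3749, 4409 and 3606 in KO at day 1, and 569.5, 707, 770.3 and 750 in WT and 696, 657, 668 and 605 in KO at day 4. KO libraries at day 1 held at least 3606 and no other library of day 1 or day 4 exceeded 1449. Sqstm1 fell in both genotypes and further in KO (-1.73 ± 0.15 (SE), with an adjusted p of 4.73e-07). Srxn1, which repairs oxidised peroxiredoxins, fell in KO only; it was at 58.3, 114, 129 and 48.2 in WT and 346, 328, 450.3 and 358 in KO at day 1 and 85.5, 89.7, 103 and 104 in WT and 160.5, 106, 144 and 70.2 in KO at day 4, with an interaction of -1.92 ± 0.38 (adjusted p = 0.00306). Gpx4, which reduces lipid peroxides, gave -1.07 ± 0.17. Gclm, Gsta4, Sod1 and Txn1 were the other members called. The letters TGACNNNGC, part of the element that NRF2 binds, lay on either strand of the 300 bases around a start (250 before to 50 after) in 3 of the 6 called members with one in the table (Gclm, Sod1, Srxn1) and in 0 of the 4 called haem and iron genes with a promoter, against 14% of all genes with a promoter.

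Heat shock proteins formed one of the groups with the most calls. HSF1, the factor that raises them when proteins misfold, binds inverted repeats of GAA. Promoters of 3 called genes are shown because they hold GAANNTTC or TTCNNGAA, a pair of such repeats, which the capitals mark. They are given from 200 bases before to 30 bases after the RefSeq start on build GRCm38.p6, on the gene's own strand: Hspb1 at chr5:135887719-135887948 (plus strand), Hspb8 at chr5:116422835-116423064 (minus strand) and Hsph1 at chr5:149636286-149636515 (minus strand).
Hspb1: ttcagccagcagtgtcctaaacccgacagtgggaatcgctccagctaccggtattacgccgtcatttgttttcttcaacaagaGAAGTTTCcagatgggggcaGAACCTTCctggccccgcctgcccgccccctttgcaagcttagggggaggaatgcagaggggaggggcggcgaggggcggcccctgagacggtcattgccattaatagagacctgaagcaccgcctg
Hspb8: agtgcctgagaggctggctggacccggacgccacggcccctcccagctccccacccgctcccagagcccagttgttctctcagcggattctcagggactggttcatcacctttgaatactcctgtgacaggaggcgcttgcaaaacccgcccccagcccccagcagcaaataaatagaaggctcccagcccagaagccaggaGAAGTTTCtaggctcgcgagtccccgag
Hsph1: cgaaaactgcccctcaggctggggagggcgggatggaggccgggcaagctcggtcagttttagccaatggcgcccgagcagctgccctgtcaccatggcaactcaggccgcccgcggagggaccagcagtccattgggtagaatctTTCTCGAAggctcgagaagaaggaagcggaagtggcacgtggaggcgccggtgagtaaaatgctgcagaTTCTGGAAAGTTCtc

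In Hsph1 the second stretch of capitals is TTCNNGAA and GAANNTTC overlapping by 3 letters. Of 14 called heat shock genes, 9 had a promoter in the table, and in 8 of these the 300 bases from 250 before to 50 after a start held GAANNTTC or TTCNNGAA, each of which reads the same on both strands. The same was true of 17% of all 27025 genes with a promoter. A match describes letters and not a bound site. No share was taken for uncalled members of this list or of the NRF2, haem and ATF4 lists. The shares therefore do not bear on which members were called.

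Of 30 cytosolic heat shock proteins, 14 had a lower interaction, and 20 were higher in KO at day 1, against 6.85% and 11.9% of all genes. All 30 fell in KO between the days, 28 fell in WT, and the list median of the interaction was -0.71. Under quantile normalization 7 were called lower.

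Hspb8, a small chaperone that works with Bag3, was at 5.05, 7.59, 9.82 and 7.21 in WT and 57.3, 69.5, 69 and 63.2 in KO at day 1, and 25.1, 22.4, 28.9 and 24.7 in WT and 22.6, 12.2, 16.6 and 21.2 in KO at day 4. KO was higher in each library at day 1 and overlapped WT at day 4. Hspb8 rose in WT and fell in KO, with -3.48 ± 0.31 (SE), with an adjusted p of 6.62e-07. Hspb1, the small chaperone that carries the paired matches above, was at 203, 188, 122 and 129 in WT and 509, 491, 484 and 463 in KO at day 1, and 68.9, 69.1, 41.1 and 49.4 in WT and 22.1, 28.7, 21.4 and 21 in KO at day 4. KO libraries were the highest at day 1 and the lowest at day 4, with no overlap between genotypes at either day, and Hspb1 fell in both with an interaction of -2.86 ± 0.26 (SE), with an adjusted p of 9.73e-07.

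Cryab, alpha B-crystallin, was at 229, 205, 192 and 193 in WT and 2067, 1560, 1621 and 1827 in KO at day 1, and 60.4, 106, 76.2 and 86.8 in WT and 94, 59.8, 171 and 62.3 in KO at day 4. Day 1 KO libraries held at least 1560, and day 4 libraries of both genotypes overlapped; the interaction was -2.98 ± 0.34 (SE), with an adjusted p of 1.5e-05. Hsph1, a nucleotide exchange factor for Hsp70, and Hspa1b, an inducible Hsp70, were chosen after their values were seen. Hsph1 was at 214, 252, 329 and 240.3 in WT and 845, 712, 839.7 and 843 in KO at day 1 and 58.9, 70.9, 70.7 and 74.3 in WT and 105, 54.6, 80.6 and 63.4 in KO at day 4, with -1.55 ± 0.24 (adjusted p = 0.000324). Hspa1b gave -2.22 ± 0.42 (adjusted p = 0.00208), and its reads may be divided with its close copy Hspa1a, at -1.92.

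Hspa8, the constitutive Hsp70 that selects the cargo of chaperone-mediated autophagy, was at 4993, 5160, 4781 and 5034 in WT and 9702, 8168, 8757 and 8152 in KO at day 1, and 763, 834, 730.5 and 804 in WT and 768, 752, 980.5 and 836 in KO at day 4. It was higher in KO at day 1 in all 4 libraries and overlapped at day 4, and its interaction was -0.71 ± 0.12 (SE), with an adjusted p of 0.000987, but 0.26 with an adjusted p of 0.604 under quantile normalization, where the direction turned.

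**Figure D3:**
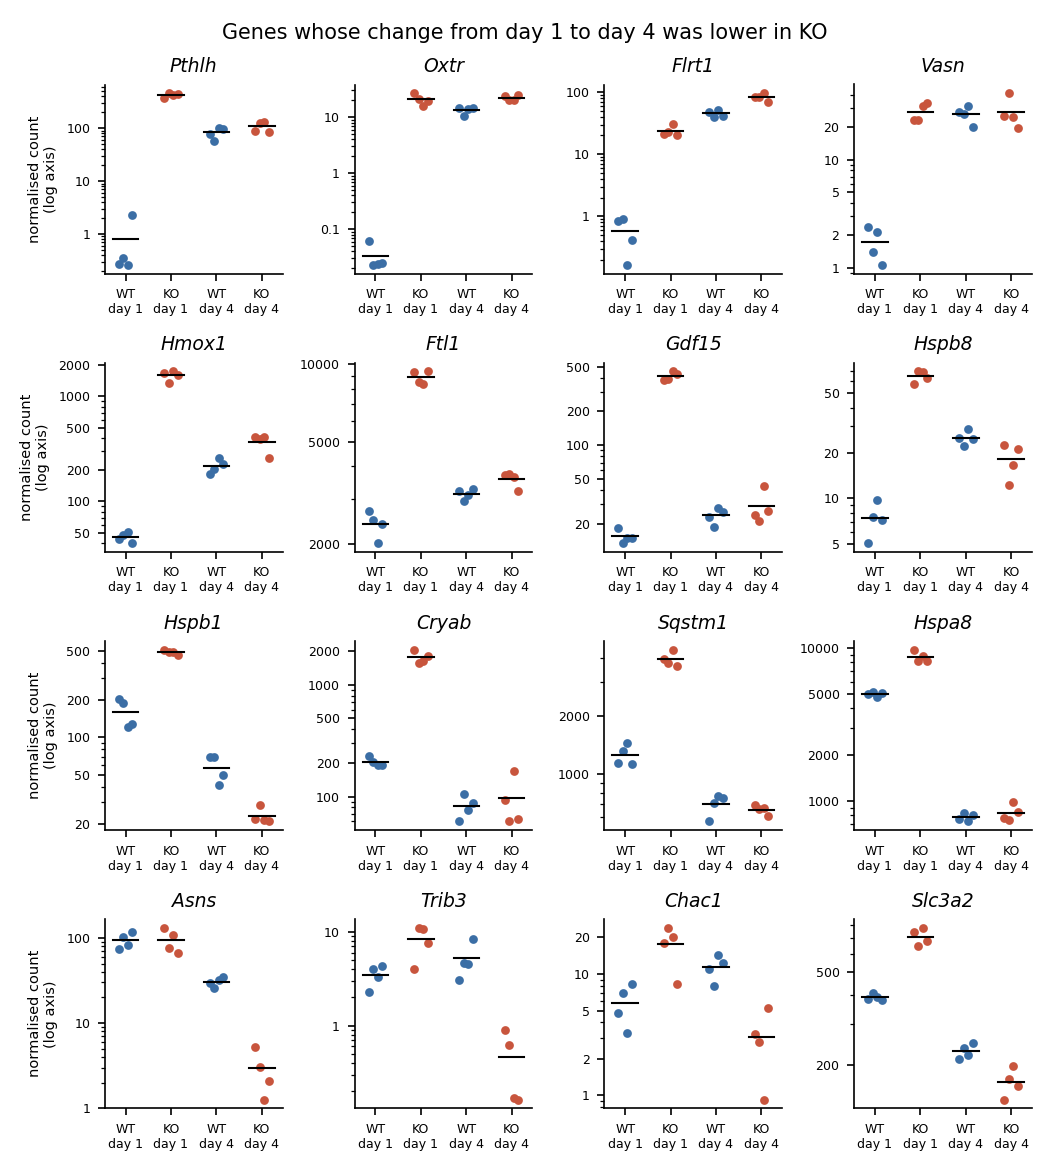
Normalised counts of 16 genes with a lower interaction, on log axes, in each of the 4 libraries of each group (points; blue WT, red KO) with the group mean (line). KO at day 1 is the highest group for most of the genes shown, while for Asns the groups are alike at day 1 and KO is the lowest at day 4.

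In the ATF4 programme some genes were also lower in KO than in WT at day 4. ATF4 is a factor made when amino acids run short, when proteins misfold in the endoplasmic reticulum or when mitochondria are impaired, and it acts with C/EBP partners on sites that contain TGATGNAA. Promoters of 3 called members with those letters on either strand, marked in capitals, are shown in the same way: Asns at chr6:7693180-7693409 (minus strand), Chac1 at chr2:119351042-119351271 (plus strand) and Trib3 at chr2:152344031-152344260 (minus strand).
Asns: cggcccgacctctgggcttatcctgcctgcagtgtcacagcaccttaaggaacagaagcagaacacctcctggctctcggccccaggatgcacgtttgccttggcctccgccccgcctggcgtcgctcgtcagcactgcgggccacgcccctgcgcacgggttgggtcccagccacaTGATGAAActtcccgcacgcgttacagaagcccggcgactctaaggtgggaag
Chac1: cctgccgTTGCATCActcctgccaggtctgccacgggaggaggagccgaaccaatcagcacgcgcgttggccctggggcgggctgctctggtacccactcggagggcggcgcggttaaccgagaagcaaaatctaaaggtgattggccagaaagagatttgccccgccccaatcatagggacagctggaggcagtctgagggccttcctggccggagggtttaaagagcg
Trib3: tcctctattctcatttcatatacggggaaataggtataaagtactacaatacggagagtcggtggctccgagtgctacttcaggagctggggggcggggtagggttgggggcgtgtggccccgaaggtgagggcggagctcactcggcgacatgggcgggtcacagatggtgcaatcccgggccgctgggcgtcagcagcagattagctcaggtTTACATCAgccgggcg

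Of 10 called ATF4 targets, 9 had a promoter in the table. Of these, 6 held TGATGNAA in the 300 bases (Asns, Chac1, Fgf21, Nupr1, Trib3 and Vldlr), against 4.51% of all genes with a promoter. The genes were listed as ATF4 targets, and uncalled members were not counted, so this share does not bear on being called. In all, 10 of 22 ATF4 targets had a lower interaction (6.85% of all genes did), with a list median of -0.96. At day 1, 10 were higher in KO (11.9% of all genes were), with a day 1 median of 0.77. At day 4, 6 were lower in KO (1.71% of all genes were) and 1 was higher. Quantile normalization called 7 with a lower interaction, and edgeR and the 24-library model called 8 each.

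Asns, asparagine synthetase, was at 74.8, 102, 82.2 and 116 in WT and 131, 76.8, 108 and 66.7 in KO at day 1, and 29.2, 26, 32.3 and 34.3 in WT and 5.3, 3.08, 1.26 and 2.11 in KO at day 4. The genotypes overlapped at day 1, and at day 4 no KO library exceeded 5.3 while no WT library was under 26. Asns fell in both genotypes, and the interaction was -3.09 ± 0.38 (SE), with an adjusted p of 3.73e-05, equal to the KO minus WT difference at day 4 of -3.09 ± 0.27 (adjusted p = 8.12e-07).

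Trib3, a pseudokinase that damps ATF4 signalling, was at 2.3, 3.97, 3.31 and 4.36 in WT and 4.03, 11, 10.7 and 7.51 in KO at day 1, and 3.07, 4.69, 4.57 and 8.42 in WT and 0.903, 0.616, 0.171 and 0.162 in KO at day 4. It fell in KO only, to a total of 22 counts over the 4 libraries at day 4, so its interaction of -3.04 ± 0.50 (adjusted p = 0.000595) depends on the pseudocount, from -4.97 to -1.5 over the settings. Chac1, which degrades glutathione and was chosen after its values were seen, was at 4.75, 7, 3.26 and 8.29 in WT and 18.1, 24, 20 and 8.26 in KO at day 1, and 10.9, 7.91, 14.4 and 12.4 in WT and 3.18, 2.75, 0.922 and 5.22 in KO at day 4. It rose in WT and fell in KO, with 1 KO library of day 1 at the level of WT (-3.13 ± 0.54 (SE), with an adjusted p of 0.000991).

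Ddit3, also called CHOP, was at 21.2, 20.7, 20.2 and 17.8 in WT and 37.5, 33.7, 29.3 and 31.1 in KO at day 1, and 51.5, 57.6, 49.4 and 50.6 in WT and 19.8, 26.7, 23.6 and 29.7 in KO at day 4. KO was higher in all libraries at day 1 and lower in all at day 4. Ddit3 rose in WT and fell in KO, with -1.74 ± 0.23 (SE), with an adjusted p of 7.99e-05. Slc3a2, the heavy chain of amino acid exchangers, was at 386, 409, 393 and 382 in WT and 744, 649.7, 776 and 679 in KO at day 1 and at 213, 237, 220.3 and 249 in WT and 142, 174, 198 and 163 in KO at day 4, and fell further in KO (-1.30 ± 0.15, adjusted p = 1.39e-05). Slc7a5, the light chain that pairs with it, gave -1.32 and Psat1 of serine synthesis gave -0.96. Nupr1, a stress-induced chromatin protein also chosen after its values were seen, gave -1.17 ± 0.23 (adjusted p = 0.00304).

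Of 21 genes of endoplasmic reticulum stress, 5 had a lower interaction, with a list median of -0.46. Quantile normalization and edgeR each called 3 and the 24-library model 2. Hspa5, the main chaperone of that compartment, fell in both genotypes from means of 1786 ± 239 (SD, n = 4) in WT and 2764 ± 243 in KO to 369 ± 39.4 and 293 ± 55.8, with -0.98 ± 0.18 (adjusted p = 0.00168; -0.64 with 0.179 under quantile normalization). Atf6, a membrane-bound factor that is cleaved under this stress, rose in WT and fell in KO, at -1.57 ± 0.35 (adjusted p = 0.00659), and its KO libraries at day 4 ran from 33.1 to 90.9. Among 20 p53 targets, 5 were lower, Gdf15 among them, and 1 higher, against 6.85% and 2.95% of all genes. The 24-library model called 2 lower. Cdkn1a, the cell cycle inhibitor p21, fell in KO only, with means of 297 ± 50.2 and 526 ± 42.2 at day 1 and 352 ± 31.2 and 287 ± 10.3 at day 4 (-1.13 ± 0.16, adjusted p = 0.000162).

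Some genes of the autophagy routes were higher in KO at day 1, where 11.9% of all genes were. Of 20 genes of chaperone-mediated autophagy, which include its chaperones, 14 were higher in KO at day 1 and 7 had a lower interaction, with a median of -0.62. Quantile normalization made 1 such call, edgeR 3 and the 24-library model 4. Lamp1, the abundant membrane protein of lysosomes, was at 46.5, 48.7, 35.3 and 45.3 in WT and 80.2, 72.8, 59.3 and 118 in KO at day 1, and 137, 133, 145 and 116 in WT and 131, 105, 147 and 102 in KO at day 4. It rose in both genotypes and further in WT, by -1.0 ± 0.26 (SE), with an adjusted p of 0.0168, and this call was lost when all 24 libraries shared one model (adjusted p = 0.28).

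In macroautophagy, where a double membrane encloses cargo, 9 of 28 genes had a lower interaction and 1, Atg10, a higher one. At day 1, 11 of the 28 were higher and 1 lower in KO. Gabarapl1, which tags the growing membrane, was at 59.3, 63.8, 66.5 and 57 in WT and 228, 200.5, 267 and 214 in KO at day 1, and 34.4, 36.7, 29 and 25.8 in WT and 40.3, 36, 45.5 and 19.1 in KO at day 4. Each KO library of day 1 held at least 200.5 and the day 4 groups overlapped, with -1.76 ± 0.29 (SE), with an adjusted p of 0.000624. Map1lc3b, the LC3 protein of the same family, gave -0.90 ± 0.16 (adjusted p = 0.00118), Map1lc3a -1.79, the receptor Optn -1.69 and Wipi2 -1.38.

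Lysosomal genes had a lower interaction in 7 of 32 cases (2 under quantile normalization) and a higher one in 1, Psap. At day 1, 7 were higher and 1 lower in KO, with a median of 0.07. Npc1, which exports cholesterol from lysosomes, was at 19.6, 18.8, 21.6 and 20.9 in WT and 70.5, 59, 53.8 and 63.5 in KO at day 1, and 82.1, 87.4, 87.4 and 79.3 in WT and 61.1, 93.3, 81.6 and 78.4 in KO at day 4. WT libraries at day 1 were the lowest, apart from the other groups. Npc1 rose further in WT, with -1.67 ± 0.20 (SE), with an adjusted p of 3.45e-05. The proteases Ctsd, Ctsb and Ctsl gave -1.13, -0.85 and -0.73. Quantile normalization ended the calls of Ctsb (adjusted p = 0.12) and Ctsl (0.196). Proteasome subunits fell in 35 of 36 cases in each genotype. Of the 36, 8 had a lower interaction (6.85% of all genes did), or 4 under quantile normalization and 3 with 24 libraries. Psmb6 gave -0.95 ± 0.16, and Psme4, the activator that rose instead, gave -1.07 ± 0.20.

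**Figure D4:**
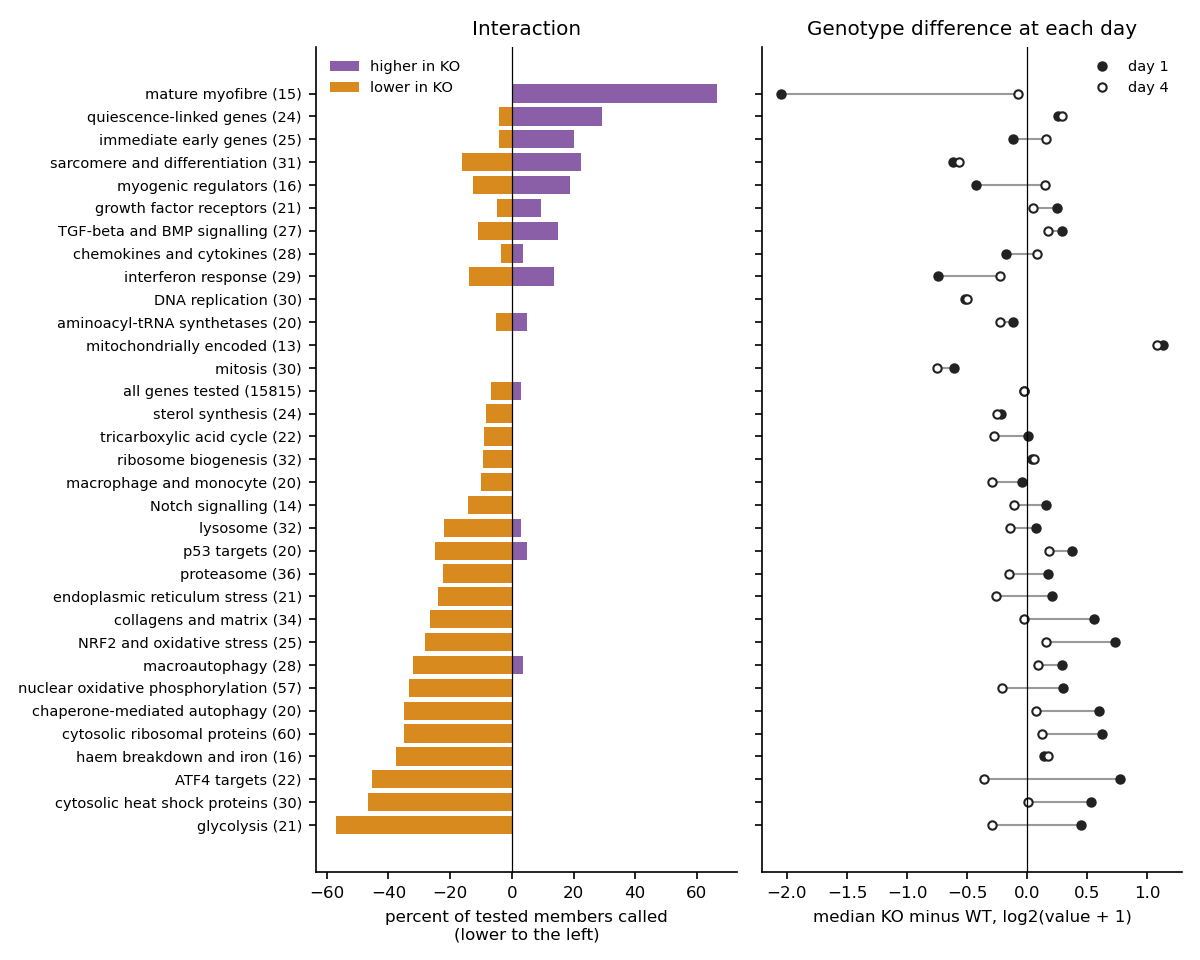
Left, percent of the tested members of each list (number in brackets) called in the interaction, higher to the right and lower to the left; right, the list median of KO minus WT at day 1 (filled) and day 4 (open), on a log2(value + 1) scale. Mature myofibre markers stand at the top, with 10 of 15 higher, and glycolysis at the foot, with 12 of 21 lower; the row of all genes shows the background of 2.95% and 6.85%.

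Energy metabolism and the ribosome gave many calls of small size, and these depended on scaling. Normalised counts summed over all genes to 0.872 to 0.917 M in WT and 1.066 to 1.124 M in KO at day 1, and to 0.773 to 0.859 M and 1.128 to 1.345 M at day 4; the part of this in the calls was not tested. Of 21 glycolysis genes 12 had a lower interaction, against 6.85% of all genes, with a median of -0.86. Of the list, 6 were called under quantile normalization and 7 with 24 libraries. Gapdh, which makes the NADH of the pathway, was at 834, 762, 696 and 750.2 in WT and 1287, 1140, 1093 and 1208 in KO at day 1, and 343, 330.1, 300 and 334 in WT and 252, 292, 293 and 300.3 in KO at day 4. KO was higher in every library at day 1, the groups touched at 300.3 at day 4, and KO fell further (-0.84 ± 0.13 (SE), with an adjusted p of 0.000296). Pgk1, the next enzyme, gave -0.82 ± 0.13 (adjusted p = 0.000359), Pkm -0.87, Hk2 -1.16 and the glucose transporter Slc2a1 -1.14.

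Eno1, the enolase of most tissues, and Eno1b, its near-identical copy, can share reads. Eno1b was at 12.3, 8.65, 7.9 and 6.97 in WT and 908, 948, 1033 and 836 in KO at day 1, and 5.07, 3.76, 3.25 and 5.6 in WT and 91.1, 116, 118 and 111 in KO at day 4. KO was higher at both days without overlap, by 6.57 ± 0.18 (adjusted p = 7.69e-15) at day 1 and 4.36 ± 0.18 (adjusted p = 1.57e-11) at day 4. Eno1 was at 1610, 1793, 1855 and 1642 in WT and 1484, 1612, 1587 and 1450 in KO at day 1 and 442, 469, 513 and 646 in WT and 207, 234, 149.7 and 188 in KO at day 4. Added together, a choice made after the values were seen, the pair came at day 1 to 1734 ± 117 (SD, n = 4) for WT and 2465 ± 153 for KO, and to 522 ± 91.1 and 304 ± 34.2 at day 4. The separate interactions were -1.24 ± 0.18 for Eno1 and -2.21 ± 0.26 for Eno1b. Reads of the copies may have been divided differently between libraries, so both values are uncertain. Eno1b was -0.47 with an adjusted p of 0.359 under quantile normalization.

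Among 57 nuclear genes of oxidative phosphorylation, which make the respiratory chain together with 13 mitochondrially encoded genes, 19 had a lower interaction (7 under quantile normalization and 11 with 24 libraries) and the median was -0.53. Cox6a1, a subunit of complex IV, was at 353, 292, 250.5 and 304 in WT and 586, 553, 491 and 646 in KO at day 1, and 328, 322, 299 and 325 in WT and 249.7, 240, 183 and 222 in KO at day 4. It fell in KO only, from above WT to under it without overlap at either day, with -1.44 ± 0.17 (SE), with an adjusted p of 2.16e-05. Atp5d of the ATP synthase fell in both and further in KO (-1.21 ± 0.14, adjusted p = 2.17e-05).

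The 13 mitochondrially encoded genes themselves all rose in both genotypes, and KO was above WT in 11 at day 1 and in 12 at day 4. Their interaction median was -0.03. None passed the test by limma, none had an unadjusted p under 0.05, and edgeR and DESeq2 called none; quantile normalization called 6 lower. Whether the nuclear and the mitochondrial genes differed was not tested, and the order of their shares turned with the scaling, from 19 of 57 against 0 of 13 to 7 of 57 against 6 of 13 under quantile normalization.

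Of 60 cytosolic ribosomal proteins 55 were higher in KO at day 1, and 21 had a lower interaction, with a median of -0.47. The shares over all genes were 11.9% and 6.85%. Rpl13 was at 1798, 1637, 1402 and 1653 in WT and 3015, 3018, 2689 and 3361 in KO at day 1, and 582, 614, 539 and 572 in WT and 539, 609.8, 652 and 544 in KO at day 4. KO lay above WT in every library at day 1 and overlapped it at day 4 (-0.88 ± 0.13 (SE), with an adjusted p of 0.000308). Rplp0 of the ribosomal stalk and Rps19 gave -0.83 ± 0.13 and -0.83 ± 0.16. Quantile normalization called 2 of the list lower, and edgeR 10.

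Genes whose change was higher in KO included the stem cell factor Pax7. Pax7, the transcription factor that marks and maintains muscle stem cells, was at 100, 82.7, 77.2 and 81 in WT and 28.5, 30.2, 37 and 32.4 in KO at day 1, and 79.7, 72.5, 68.6 and 64.4 in WT and 62.2, 106, 96.6 and 76.7 in KO at day 4. KO libraries at day 1 were the lowest of all and did not overlap with any other group, while the day 4 groups overlapped. Pax7 rose in KO, did not pass in WT, and had an interaction of 1.62 ± 0.23 (SE), with an adjusted p of 0.000158. The regulators Myf5, Myod1 and Myog were not called. Myf5 gave 0.45 ± 0.22 (adjusted p = 0.229) and Myod1 -0.53 ± 0.33 (adjusted p = 0.342), after falls in both genotypes. Myog, the differentiation factor, gave 1.21 ± 1.04 with a spread in WT at day 1 from 3.19 to 54.9. Of 16 myogenic regulators 3 were higher (Pax7, Id2, Id3) and 2 lower (Mef2d, Msc). The Msc call was lost in 17 of 29 settings. Among the 13 markers of muscle stem cells, 3 had a higher interaction (Pax7, Chodl, Fgfr4) and 2 a lower one (Des, Msc). The median of these markers was -0.21, and quantile normalization called 3 higher and 0 lower.

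Among 24 genes linked to quiescence 7 had a higher interaction, against 2.95% of all genes, and 1, Hey1, a lower one, whose call was lost in 18 of 29 settings. The list median of the interaction was -0.07, and the 24-library model called 4 higher and 0 lower. At day 1, 8 of the 24 were lower in KO (7.23% of all genes were) and 4 higher (11.9%). The list median of KO minus WT at day 1 was 0.26, so the list as a whole did not lie lower in KO. Chodl, chondrolectin, a membrane lectin high in resting muscle stem cells, was at 1190, 1227, 1320 and 1186 in WT and 265, 215, 234 and 222 in KO at day 1, and 15.5, 16.4, 20.1 and 18.1 in WT and 12.8, 19, 18.6 and 50.1 in KO at day 4. At day 1 WT libraries held at least 1186 and KO libraries at most 265, and at day 4 the groups overlapped at 50.1 or less. Chodl fell in both genotypes and further in WT (2.71 ± 0.36 (SE), with an adjusted p of 7.99e-05).

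Cd34, a surface sialomucin of resting cells, was at 442, 476, 549 and 471 in WT and 217, 226, 209 and 189.9 in KO at day 1, and 8.17, 14.1, 11.4 and 27.3 in WT and 15, 27.2, 30.2 and 22.2 in KO at day 4. WT was higher in each library at day 1 and the groups overlapped at day 4, with 1.88 ± 0.36 (SE), with an adjusted p of 0.00214. Fgfr4, a receptor for fibroblast growth factors, was at 162, 228, 337 and 189.9 in WT and 53.6, 92.3, 97.2 and 56.5 in KO at day 1, and 71.1, 90.5, 80.2 and 65 in WT and 76.4, 73.8, 80.9 and 84.1 in KO at day 4. It fell in WT only, to the level KO held at both days (1.64 ± 0.30 (SE), with an adjusted p of 0.00155). Tgfbr3, a coreceptor for TGF-beta, and Spry1, an inhibitor of growth factor signals that was chosen after its values were seen, gave 1.40 ± 0.22 and 1.27 ± 0.32; Spry1 missed the threshold when all 24 libraries shared one model (adjusted p = 0.107). Calcr, the calcitonin receptor of resting cells, was not called (-0.31 ± 0.58, adjusted p = 0.802) and was lower in KO at both days.

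Immediate early genes, switched on within minutes of a stimulus or of cell isolation, fell from day 1 to day 4 in 18 of 25 cases in WT and 21 in KO. Of the 25, 5 had a higher interaction and 1, Klf6, a lower one, with a median of 0.36; DESeq2 called 8 higher. Zfp36, which speeds the decay of cytokine mRNA, was at 226, 242, 335 and 253 in WT and 122, 125, 125 and 133 in KO at day 1, and 34.2, 36.9, 43 and 57.1 in WT and 81.5, 54.5, 49.1 and 41.2 in KO at day 4. WT at day 1 exceeded all other libraries (1.42 ± 0.27 (SE), with an adjusted p of 0.00199). Egr1 was at 302, 301, 457 and 282 in WT and 128, 127, 169 and 149 in KO at day 1, and 65.2, 44.1, 43.5 and 105 in WT and 41.3, 122, 93.2 and 91.3 in KO at day 4, with 1.63 ± 0.40 (SE), with an adjusted p of 0.0138. Nr4a1 and Fosb gave 1.88 ± 0.42 and 1.77 ± 0.41, each from a WT level at day 1 above every KO library except that of Nr4a1, whose groups touched at 103 and 104.

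The interferon response, a set of antiviral genes raised through STAT factors, had calls in both directions. Of 29 genes 4 were higher (Ifit1, Ifit3, Irf1, Usp18) and 4 lower (B2m, Bst2, H2-D1, Ifi27), against 2.95% and 6.85% of all genes. The list median of the interaction was 0.55. At day 1, 12 of the 29 were lower in KO (7.23% of all genes were) and 3 higher (11.9%), with a day 1 median of -0.74. The 24-library model called 2 and 2, quantile normalization 3 and 2, edgeR 4 and 2 and DESeq2 6 and 3. Ifit1, which binds viral RNA, was at 7.54, 11.1, 4.2 and 11.4 in WT and 0.0278, 0.072, 0.0261 and 0.134 in KO at day 1, and 7, 4.76, 3.76 and 8.08 in WT and 7.5, 6.45, 3.38 and 13.9 in KO at day 4. KO libraries at day 1 held 3 counts in all, so the size depends on the pseudocount, from 1.57 to 8.26 over the settings, with adjusted p of at most 0.00848. Irf1 fell in both genotypes, from 77.3, 75.1, 77 and 70.3 in WT and 31.1, 32.2, 35.3 and 33.4 in KO at day 1, with 1.18 ± 0.22 (adjusted p = 0.00172). H2-D1, which presents peptides to T cells, was higher in KO at day 1 and gave -1.11 ± 0.17 (adjusted p = 0.000407).

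Markers of mature myofibres were the list with the largest share of higher calls, 10 of 15, and a median of 2.03. Quantile normalization called 6 and the 24-library model 5. Their summed normalised counts were 232 to 315 in WT and 66.5 to 102 in KO at day 1, and 270 to 470 in WT and 173 to 319 in KO at day 4. Ckm, the muscle creatine kinase, was at 29.3, 23.7, 32.2 and 20.7 in WT and 2.31, 2.42, 1.43 and 3.66 in KO at day 1, and 5.07, 3.04, 0.776 and 0.431 in WT and 5.85, 0.945, 2.97 and 5.22 in KO at day 4. WT libraries at day 1 stood above all others, and Ckm fell in WT only (3.61 ± 0.64 (SE), with an adjusted p of 0.00125). Mb, myoglobin, was at 6.13, 13.9, 17.1 and 13.8 in WT and 1.25, 1.13, 2.32 and 2.27 in KO at day 1, and 1, 1.04, 0.546 and 1.98 in WT and 19.6, 5.63, 3.79 and 6.59 in KO at day 4. It fell in WT and rose in KO, with 1 KO library at day 4 at 19.6 and the other 3 between 3.79 and 6.59 (4.29 ± 0.59 (SE), with an adjusted p of 0.000116).

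Tnnc2 and Mybpc1, of the contractile apparatus of fast and slow fibres, showed the pattern in which KO at day 1 alone was low. Tnnc2 was at 17.6, 20.8, 18.6 and 15.3 in WT and 2.53, 2.04, 0.965 and 5.21 in KO at day 1, and 19.6, 22.6, 8.88 and 17.1 in WT and 28.8, 11.7, 10.9 and 16.4 in KO at day 4, and its interaction was 2.45 ± 0.51 (adjusted p = 0.00442; 0.0523 with all 24 libraries in one model). Mybpc1 was at 28.4, 38.7, 39 and 27.3 in WT and 9.86, 12.6, 3.83 and 4.3 in KO at day 1 and 27.7, 45.5, 26.8 and 27.3 in WT and 47.9, 40.4, 32.8 and 47.1 in KO at day 4 (2.53 ± 0.42, adjusted p = 0.000616). These are low levels for genes that myofibres express in abundance, and whether they came from the sorted cells or from fibre RNA was not tested.

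Within the wider list of 31 sarcomere and differentiation genes, 7 were higher and 5 lower. Quantile normalization called 3 higher and 4 lower, edgeR 6 and 3, and the 24-library model 2 and 1. The 7 higher were Acta1, Ckm, Myh4, Myl1, Tnnc2, Tnni2 and Tnnt3, and the 5 lower were Cav3, Ckb, Myl4, Tpm1 and Tpm2. Myl4, an embryonic myosin light chain, rose in WT only, from 4.8, 2.68, 4.85 and 3.03 to 12.2, 21.4, 10.1 and 16.6, with -2.41 ± 0.50 (adjusted p = 0.0043). Tpm1, a tropomyosin of many cell types, rose in WT only, to 291, 297, 303 and 298 in WT and 163, 228, 153 and 217 in KO at day 4 (-0.86 ± 0.18, adjusted p = 0.00406; 0.277 with all 24 libraries in one model).

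**Figure D5:**
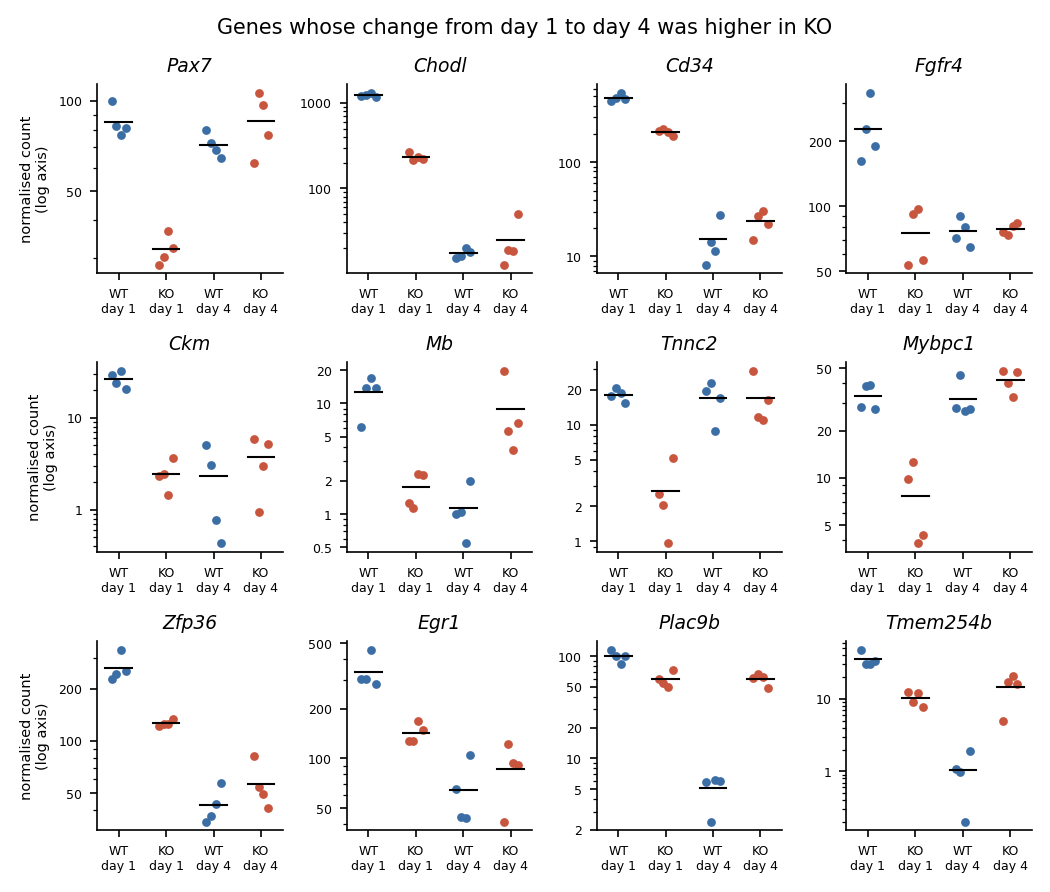
Normalised counts of 12 genes with a higher interaction, on log axes, in each of the 4 libraries of each group (points; blue WT, red KO) with the group mean (line). For Pax7, Tnnc2 and Mybpc1 KO at day 1 is the low group; for Chodl, Cd34, Ckm, Zfp36 and Egr1 WT at day 1 is the high group; for Plac9b and Tmem254b WT at day 4 is the low group.

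Of 12 markers of smooth muscle and pericytes, the mural cells of vessels, 2 had a higher interaction (Rgs5, Abcc9) and 2 a lower one (Des at -1.04 ± 0.23 and Acta2 at -0.98 ± 0.30). The Acta2 call was lost in 17 of 29 settings, and Des missed the threshold under quantile normalization (adjusted p = 0.113). Rgs5, a regulator of G protein signals and a marker of pericytes, was at 3.47, 4.66, 1.57 and 2.34 in WT and 0.583, 1.27, 0.495 and 1.2 in KO at day 1, and 13.9, 30.6, 7.9 and 24.9 in WT and 124, 111, 71 and 23.8 in KO at day 4. It rose in both genotypes and further in KO, with 1 KO library at day 4 within the range of WT (3.01 ± 0.66 (SE), with an adjusted p of 0.00583). Abcc9, the other pericyte marker called higher, was at 6.1, 1.11, 3.82 and 2.21 in WT and 46.2, 30, 8.64 and 7.88 in KO at day 4, with 2 of the 4 KO libraries at 30 or more and 2 at 8.64 or less (2.81 ± 0.72, adjusted p = 0.0164; 0.0574 with all 24 libraries in one model). The 12 markers summed to 346 to 529 in WT and 387 to 576 in KO at day 4. That sum includes Acta2, with means of 166 in WT and 114 in KO, and Des, with 154 and 126. Des is also on the list of muscle stem cell markers. One by one, 2 of the 12 were higher in KO at day 4 (Rgs5, Abcc9), against 0.986% of all genes, and 0 were lower.

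Collagens and matrix proteins rose from day 1 to day 4 in 23 of 34 cases in WT and 21 in KO, and 9 had a lower interaction, with a median of -0.58. Col3a1, the collagen of loose connective tissue, was at 97.4, 121, 152 and 90.1 in WT and 267, 282, 379 and 309.7 in KO at day 1, and 714, 743, 608 and 986 in WT and 609, 1036, 1467 and 514 in KO at day 4. KO exceeded WT in each library at day 1, and KO libraries at day 4 ran from 514 to 1467 (-1.29 ± 0.35 (SE), with an adjusted p of 0.0249). Fbln2, which binds elastic fibres and basement membrane, rose in WT only, with -2.24 ± 0.54 (adjusted p = 0.0109). Col3a1 was lost in 5 of the settings tried, edgeR and the 24-library model each called 3 of the list lower, and quantile normalization 4. Among 15 markers of fibro-adipogenic progenitors, connective tissue cells that make such matrix, 4 were lower, Col3a1 and Lox among them. The Lox call was lost in 19 of 29 settings, leaving out 1 library left 1 to 3 lower, and edgeR called none. These markers summed to 974 to 1349 in WT and 1846 to 2613 in KO at day 1, and to 2011 to 2868 and 1531 to 3948 at day 4. Their part in the matrix calls was not tested.

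Signalling receptors were called one by one. Notch1, whose cleaved form keeps muscle stem cells at rest, was at 11.4, 9.2, 15.6 and 9.33 in WT and 23.2, 22.5, 33 and 22.9 in KO at day 1, and 34.2, 34.5, 32.7 and 30.5 in WT and 27.8, 22.4, 17.5 and 35.5 in KO at day 4. WT libraries at day 1 were the lowest, and Notch1 rose in WT only (-1.49 ± 0.32 (SE), with an adjusted p of 0.00529). Bmpr2, a receptor for bone morphogenetic proteins, was at 50.9, 46.7, 33.6 and 48.9 in WT and 129, 136, 86.1 and 134 in KO at day 1, and 123, 133, 80.8 and 106 in WT and 114, 112, 119 and 107 in KO at day 4. It rose in WT only, to the KO level (-1.35 ± 0.25 (SE), with an adjusted p of 0.00168). Of 27 genes of TGF-beta and BMP signalling 4 were higher and 3 lower (2 and 2 with 24 libraries, 3 and 1 under quantile normalization), and of 14 Notch genes 2 were lower (1 with each of these). Id2, an inhibitor of differentiation factors, fell in WT and rose in KO, at 214, 175, 160.5 and 252 in WT and 141, 149, 127 and 150.3 in KO at day 1 and 164, 133, 123 and 149 in WT and 190.3, 209, 251 and 235 in KO at day 4 (1.11 ± 0.20, adjusted p = 0.00138).

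A smaller set of genes parted at day 4. Slc15a2, a transporter of short peptides, was at 16.8, 12.7, 10.8 and 14 in WT and 18.1, 20.6, 9.05 and 15.9 in KO at day 1, and 21, 19.9, 12.4 and 9.91 in WT and 0.275, 0.288, 0.307 and 0.162 in KO at day 4. The day 1 groups overlapped, the change in WT did not pass, and all 4 KO libraries at day 4 were at 0.307 or less, 12 counts in total. The Slc15a2 interaction was -3.85 ± 0.43 (SE), with an adjusted p of 1.29e-05, and ran from -6.32 to -2.09 over the settings.

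Plac9b, a small secreted protein, was at 116, 99, 84.3 and 101 in WT and 59.6, 54.7, 49.8 and 73.7 in KO at day 1, and 5.89, 2.4, 6.18 and 5.95 in WT and 60.8, 66.6, 62 and 48.2 in KO at day 4. WT libraries at day 4 were apart from all others, and Plac9b fell in WT only (4.11 ± 0.31 (SE), with an adjusted p of 8.61e-08). Plac9a and Plac9b are near-identical copies, as are Tmem254a, Tmem254b and Tmem254c, so reads may be divided within each set. Added over Plac9a and Plac9b, after the values were seen, the values at day 1 were 112 ± 15.9 (SD, n = 4) for WT and 72 ± 14 for KO, and 5.95 ± 1.16 and 80.5 ± 12.7 at day 4. Added over the 3 Tmem254 copies they were 68.4 ± 6.61 and 22.6 ± 3.78 at day 1, and 6.32 ± 2.13 and 43.9 ± 11.2 at day 4. The single genes gave 4.56 ± 0.52 for Tmem254b, 4.11 ± 0.31 for Plac9b, 4.02 ± 0.50 for Tmem254c and 3.63 ± 0.54 for Plac9a, and Tmem254a, chosen after its values were seen, was not called (1.56 ± 0.71, adjusted p = 0.187).

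The table holds 2 gene identifiers for the septin Sept2, so reads may be divided between them and both values are uncertain. The first, ENSMUSG00000116048, was at 0.0208, 0.0229, 3.45 and 0.0246 in WT and 0.0278, 0.024, 2.58 and 0.0267 in KO at day 1, and 45.1, 79.7, 67.6 and 87.3 in WT and 0.0393, 0.0411, 2.08 and 2.76 in KO at day 4. WT at day 4 stood above all others. The other, ENSMUSG00000026276, was at 63.5, 68.2, 50.6 and 50.4 in WT and 141, 133, 132 and 92.9 in KO at day 4. Their sum, taken after the values were seen, was 128 ± 17.9 in WT and 126.0 ± 20.6 in KO at day 4 and 110.9 ± 6.76 and 109.7 ± 4.32 at day 1 (SD, n = 4). The sums overlapped at both days, while the separate identifiers gave -5.12 ± 0.78 and 1.09 ± 0.20. The first of these was lost with edgeR (adjusted p = 0.11), DESeq2 (0.442) and with a pseudocount of 0.

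Lists with few calls were sterol synthesis, with 2 of 24 lower, the tricarboxylic acid cycle, with 2 of 22 lower, ribosome biogenesis, with 3 of 32 lower, and aminoacyl-tRNA synthetases, with 1 higher and 1 lower of 20. Chemokines and cytokines gave 1 higher (Csf1) and 1 lower (Cxcl16) of 28, and growth factor receptors 2 higher (Fgfr4, Lifr) and 1 lower (Fgfr1) of 21. These shares lie near the background of 2.95% and 6.85% or rest on so few genes that nothing is read from them.

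The lists of DNA replication and mitosis genes gave no calls by limma in the interaction. KO was lower in 5 of 30 DNA replication genes at day 1 and in 3 at day 4, with medians of -0.52 and -0.50. For 30 mitosis genes these were 4 and 1, with medians of -0.61 and -0.75. No member of either list was higher in KO at either day. Of all genes, 7.23% were lower at day 1 and 1.71% at day 4. Of 30 DNA replication genes, which fell in 25 cases in WT and 26 in KO, none passed by limma, with 3 at an unadjusted p under 0.05, and edgeR and DESeq2 each called 1 higher. Of 30 mitosis genes, which rose in 18 cases in WT and 15 in KO, none passed by limma, with 4 at an unadjusted p under 0.05, and edgeR and DESeq2 called none. Mki67, a marker of cycling cells, was at 8.53, 18.6, 7.9 and 5.44 in WT and 4.25, 10.2, 2.48 and 1.47 in KO at day 1, and 67.8, 59.7, 61.6 and 49.2 in WT and 46.6, 44.7, 26.5 and 51.7 in KO at day 4. It rose in both genotypes, and its interaction of 0.59 ± 0.55 had an adjusted p of 0.559. Of the 20 macrophage and monocyte markers, which rose in 19 cases in each genotype, 2 had a lower interaction, Cd14 at -2.29 ± 0.43 (adjusted p = 0.00209; 0.151 with 24 libraries) and Ly6c2 at -2.04 ± 0.46 (adjusted p = 0.00695; 0.824 with edgeR and 0.802 with DESeq2). For this list DESeq2 called 3 higher. Endothelial, neutrophil, lymphocyte, glial and erythroid markers, with 7, 4, 4, 6 and 1 tested, were not called by limma either; at an unadjusted p under 0.05 there was 1 endothelial and 1 glial gene, edgeR called 1 glial gene higher and DESeq2 3.

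Leaving out single libraries moved the counts, most of all for WT at day 1. The 466 genes with a higher interaction became 287 without WT replicate 2 of day 1 and 307 without replicate 4, and were between 333 and 581 without any other single library, while the 1084 lower genes ran from 842 to 1201. DESeq2 on the recovered counts called 816 higher and 1090 lower, so that 42.8% of its calls were higher, against 30.1% here.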

How the data were processed

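Per the labels' protocols, RNA of mouse muscle stem cells was made into 24 bulk libraries by SMART-Seq v4, of which 16 were used. Reads were processed by the authors with FastQC, STAR, RSEM and limma on build mm39, per the submitters' processing notes; versions and the use of strand are not given in the sources used here. The deposited table gives a normalised signal for 17111 genes: a whole read count plus 0.5, divided by a scaled library size, as found by testing the values, of which 100% came back as whole reads within 0.02. A count of 3 corresponds to a value between 0.145 and 0.288, a limit for counting error alone, because PCR reads carry no molecular identifiers. No 2 libraries held identical counts.

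Of the genes, 15815 reached a value of 1 in 4 or more of the 16 libraries and were tested; 1296 were not. A linear model with 4 groups was fitted to log2(value + 1) by limma (3.58.1, under R 4.3.3), using its mean-variance trend and 12 residual degrees of freedom. Tests were two-sided, with Benjamini-Hochberg adjustment over all genes tested within a contrast and a threshold of 0.05; SE are limma's, and every p is limma's unless another tool is named. Differences on this scale understate the change of low genes. The members and the 40 gene lists were chosen with earlier results of these data known. Genes were named by rule: 12 fixed names; the 15 largest interactions per direction and the 3 largest per kind of change, among called genes with a mean of at least 8 over the 16 libraries, whose genotypes did not overlap at day 1 or at day 4, and without predicted-gene symbols; and, with no condition on level or overlap, up to 4 called members per list with the smallest p. Others are marked in the text as chosen after their values were seen, or stand only as called members of a list. Tested on simulated counts with 200 changed genes, the fit found 0% of 1.5-fold, 20.9% of 2-fold and 66.7% of 4-fold interactions. That simulation gave 61 calls against 1550 in the data, so the p needed to pass the adjustment was stricter there. These rates are therefore not the power of the test on the data, where interactions down to an absolute 0.37 were called.

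Alternatives were one model over 24 libraries, a replicate block, pseudocounts of 0, 0.5 and 5, no filter, equal library medians, quantile normalization, a filter requiring 5 or more in 8 libraries, no trend, library weights, the recovered reads tested by DESeq2 1.42.0 or by edgeR 4.0.16, and leaving out each library. Symbols missing or in date form, 45 in all, were looked up by identifier. Promoters are RefSeq's, on GRCm38.p6, matched by symbol; this is another build than that of the table.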

Additional observations from a re-analysis of the deposited data

Results flagged for a closer look

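The difference of the 2 genotypes' changes was itself the test, and it picked out 466 genes with a higher and 1084 with a lower change in KO. Single libraries stood apart from the other 3 of their group in 16 of 220 groups of 4, over the 55 genes given by library. In these the gap to the nearest, as a share of the range, was above Dixon's critical value. Chance gives about 1 in 20 for independent, normally distributed values. Genes of the same libraries are not independent, and some values rest on few counts. In KO at day 4 these were replicate 4 for Chodl (50.1), Hmox1 (259) and Neu2 (2.11), and replicate 2 for Hspb1 (28.7). In KO at day 1 they were replicate 3 for Bmpr2 (86.1), Notch1 (33.0) and the Sept2 identifier ENSMUSG00000116048 (2.58), and replicate 2 for Hsph1 (712.5). In WT at day 4 replicate 2 stood apart for Mybpc1 (45.5), Oxtr (10.3) and Plac9b (2.4). In WT at day 1 they were replicate 1 for Oxtr (0.0623), replicate 3 for Egr1 (457) and the same Sept2 identifier (3.45), and replicate 4 for Pthlh (2.29) and Tpm1 (183.4). That Oxtr value is the only count over the 4 WT libraries at day 1, under the limit of 3 counts.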

How the results depend on the processing

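The counts of 466 higher and 1084 lower genes became 136 and 576 when all 24 libraries shared one model, 307 and 611 under quantile normalization, 480 and 722 with edgeR and 816 and 1090 with DESeq2; the 24-library model kept 28.3% and 52.6% of the calls, and 97.1% and 99.0% of its own were among them, while 50.9% of DESeq2's higher calls were. Leaving out 1 library gave 287 to 581 higher and 842 to 1201 lower genes, with 287 and 307 without WT replicates 2 and 4 of day 1. The other alternatives stayed within 1.5 times. Higher genes made up 30.1% of calls, 42.8% with DESeq2 and 19.1% with 24 libraries; the median of all genes moved from -0.04 to 0.09 with edgeR. Quantile normalization turned the direction of Hspa8 (0.26), Cd63 (0.41) and Eef1a1 (0.46), and 78 of 138 called genes that were named or fixed were called under all 29 alternatives. The cause of these differences was not tested. Replicate numbers did not pair the libraries as a whole: deviations of same-numbered libraries correlated at -0.03 to 0.276, and the best match had the same number in 11 of 48 cases. The 1 of 24 pairs over 0.1 was replicate 3 of WT and of KO at day 1 (0.276). These 2 libraries thus shared a part of their deviation, and its source was not tested. The fit with the replicate block called 440 higher and 1105 lower genes. KO libraries at day 4 correlated least, and their scatter enters the SE of every contrast, because the fit takes a shared spread over all groups. Genes under about 3 counts per library have no stable fold.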

Other observations

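The day 0 libraries, from uninjured muscle, took no part in the comparison, and their values are given as the lowest, median and highest of 4 libraries. Pthlh was at 0.401, 0.543 and 1.36 in WT and at 464, 617 and 623 in KO, while the day 1 means were 0.79 and 427. Flrt1 was at 0.192, 1.04 and 2.08 in WT and 20.5, 55.3 and 120.3 in KO, and Oxtr at 0.0332, 0.0749 and 0.182 in WT and 2.95, 9.95 and 19.9 in KO. For these 3 genes the genotypes did not overlap at day 0. Gdf15 was at 28.1, 51.4 and 81.4 in WT and 123.5, 167.8 and 210.8 in KO. Neu2 was at 0.0997, 13.5 and 22.4 in WT and 81.0, 140.9 and 154.7 in KO. KO was thus also higher without overlap at day 0 for Gdf15 and Neu2. The genotypes overlapped for Cyp26a1 (5.58, 20.6 and 33.0 in WT, 0.465, 14.5 and 32.2 in KO) and Sqstm1 (1362, 2027 and 2434 in WT, 1436, 1979 and 2132 in KO).

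Hmox1 had the opposite order at day 0 to that at day 1, at 375, 619 and 708 in WT and 115, 124 and 160.1 in KO. Hspb1 was at 488, 548 and 690.0 in WT and 196, 260 and 329 in KO, also the opposite order. Cryab overlapped, at 1289, 1409 and 1852 in WT and 1217, 1504 and 1650 in KO. Asns, asparagine synthetase, was at 0.109, 0.271 and 0.423 in WT and 0.0828, 0.118 and 3.69 in KO, far under its day 1 level in both genotypes. Slc15a2 was at 84.5, 112 and 122 in WT and 82.0, 164 and 246 in KO.

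Eno1b, the copy of Eno1, was at 2.79, 4.00 and 5.74 in WT and 36.1, 54.8 and 65.7 in KO at day 0, so KO was above WT at all 3 days. The Sept2 identifier ENSMUSG00000116048, at 2.76 or less in KO at day 4, was at 18.2, 78.9 and 116 in WT and 47.5, 105 and 108 in KO at day 0. Plac9b was at 168, 168 and 181 in WT and 420.1, 432 and 670 in KO.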
